A study of Mus musculus with 6 samples.

Results

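The IL-18 and IL-12 receptor genes are 7 genes of the CD8+ T cell: Il18r1 and Il18rap, which encode both chains of the IL-18 receptor, Il12rb1 and Il12rb2, which encode both chains of the IL-12 receptor, and Stat4, Myd88 and Irak4, which are not receptors but carry their signals inside the cell. They were chosen by gene symbol among the 49315 genes of the deposited count table, and the choice was made with earlier results of the same treatment comparison known. Their differences between treatments are therefore given as a description. Where calls from fits over all genes are counted among them, those calls restate the comparison behind the choice, and nothing is supported with them. All 7 symbols matched 1 gene each, and all 7 passed the filter on low counts.

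The libraries are bulk RNA-seq of total CD8+ T cells sorted from the tumor-draining lymph nodes of wild-type female C57Bl6/J mice bearing B16F10 melanoma; the sample labels spell that line B26F10. In the monotherapy group (n = 3) mice received HCW9218 under the skin. In the combination group (n = 3) they received HCW9218 under the skin with anti PD1 into the peritoneum. The number of doses is given as 1 for both groups. Treatment began at a tumor size of 50 to 100 mm3 and cells were taken on day 5; the sources used here give neither the age of the mice nor the dose or antibody clone. HCW9218 is a fusion complex that joins the TGF-β receptor II ectodomain with IL-15. Every mouse carried a tumor and received HCW9218, and untreated cells were not analysed here, so the comparison asks only what differed when anti PD1 was added.

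IL-18 is a cytokine of the IL-1 family. It binds IL-18Rα (Il18r1), IL-18Rβ (Il18rap) then joins, and the paired intracellular TIR domains recruit the adaptor MyD88 and the kinase IRAK4, which leads to NF-κB. IL-12 binds a pair of chains, IL-12Rβ1 (also a chain of the IL-23 receptor) and IL-12Rβ2, whose kinases TYK2 and JAK2 activate STAT4. In T cells and natural killer (NK) cells the pathways are known to act together on interferon-γ, and IL-12 is known to raise IL-18 receptor expression.

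Library totals ran from 34568074 to 40101346 counts. The CD8 label fits its markers: the summed level of 6 CD8 T cell markers (Cd8a, Cd8b1, Cd3d, Cd3e, Cd3g and Trac) was 4640 to 5722 CPM (counts scaled to a common library total) in monotherapy and 4241 to 5717 CPM in the combination, and Cd4 averaged 1.92 CPM. Combination replicates 2 and 3 stood apart from the rest by pigment cell transcripts: Dct and Tyrp1 had 301 and 281 counts in combination replicate 2, 377 and 366 in combination replicate 3, 0 and 0 in combination replicate 1, and at most 1 count in a monotherapy library. Differences of the 7 genes, the list medians and the named list genes called higher are also given with combination replicate 1 as the only combination library; the likeness of patterns uses all 6 libraries.

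Il18r1 and Il18rap lie side by side on the plus strand of chromosome 1, at the end of a cluster of IL-1 receptor family genes. By the deposited gene models, which lie on GRCm38 at the same positions as GENCODE M21 for all 7 genes, Il18r1 spans chr1:40465552-40500854 with 12 exon blocks, and Il18rap spans chr1:40515362-40551705 with 13. The gap between them is 14507 bases. On the other side, the IL-33 receptor gene Il1rl1 ends 136 bases before Il18r1 begins. Stat4 is on the same chromosome at chr1:51987148-52107189, and the remaining genes are at chr8:70808449-70821424 (Il12rb1), chr6:67291318-67376188 (Il12rb2), chr9:119335934-119341411 (Myd88) and chr15:94543643-94581815 (Irak4).

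RefSeq start-site windows on GRCm38.p6, 250 bases before to 50 after an annotated start, were found for 6 of the 7 genes. Those of the inducible signalling chains of both receptors are shown, with 1 of the 3 windows of Il18r1, the one that does not reach into Il1rl1. Capitals mark matches, on either strand, to 4 motifs: the T-box half-site AGGTGT, the STAT site TTCNNNGAA, the RUNX site ACCACA and the AP-1 site TGANTCA. The windows are chr1:40515112-40515411, plus strand (Il18rap), chr1:40465756-40466055, plus strand (Il18r1), and chr6:67376139-67376438, minus strand (Il12rb2).
Il18rap: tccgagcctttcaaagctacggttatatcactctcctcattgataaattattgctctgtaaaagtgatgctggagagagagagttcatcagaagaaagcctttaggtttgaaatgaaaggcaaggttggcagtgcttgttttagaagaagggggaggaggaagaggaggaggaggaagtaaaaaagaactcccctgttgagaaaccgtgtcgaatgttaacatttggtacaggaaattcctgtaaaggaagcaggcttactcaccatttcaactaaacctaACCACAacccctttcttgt
Il18r1: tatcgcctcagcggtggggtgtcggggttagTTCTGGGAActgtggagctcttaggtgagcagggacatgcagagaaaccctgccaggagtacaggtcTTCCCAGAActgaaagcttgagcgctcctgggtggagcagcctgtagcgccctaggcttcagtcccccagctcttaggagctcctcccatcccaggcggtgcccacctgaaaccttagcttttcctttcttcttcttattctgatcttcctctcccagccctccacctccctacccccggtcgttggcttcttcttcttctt
Il12rb2: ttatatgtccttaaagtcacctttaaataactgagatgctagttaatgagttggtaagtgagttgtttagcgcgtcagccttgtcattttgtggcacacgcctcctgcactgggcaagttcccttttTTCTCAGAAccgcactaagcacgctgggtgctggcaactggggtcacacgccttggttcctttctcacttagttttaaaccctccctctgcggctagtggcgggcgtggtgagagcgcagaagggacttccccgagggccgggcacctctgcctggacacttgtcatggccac

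The Il18rap window held 1 RUNX match, ACCACA, at bases 282 to 287, which is 32 bases into the transcript, and no match to the other motifs. The Il18r1 window shown held 2 STAT matches, TTCTGGGAA and TTCCCAGAA, and the Il12rb2 window held 1, TTCTCAGAA. Among all 32851 windows, 8.30% held the STAT motif, 16.8% the RUNX motif, 13.7% the T-box half-site and 7.81% the AP-1 motif. Of the Il18r1 windows not shown, the one at the gene's first start had 0 matches to the 4 motifs and the other had 1 RUNX match, the Myd88 window had a T-box and a STAT match, and those of Stat4 and Irak4 had none of the 4. A match is a run of letters and not a bound site, and a window without one says nothing about the factor. The Il18rap window was 42.3% G and C, with 4 CpG pairs, against medians of 52.7% and 7 over all windows.

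The IL-18 receptor chains were the members whose groups did not overlap. Il18rap stood at 39.4, 46.5 and 38.6 CPM in monotherapy replicates 1, 2 and 3, and at 92.4, 108 and 96.4 CPM in combination replicates 1, 2 and 3. Every combination library was above every monotherapy library. The group means were 41.5 ± 4.36 and 99.0 ± 8.21 CPM (SD, n = 3 each). The difference was 1.25 ± 0.13 (SE) on the log2 scale, or 2.38-fold. As the libraries are bulk samples, more cells carrying Il18rap and more Il18rap RNA per cell cannot be told apart.

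Il18r1, the ligand-binding chain, moved the same way by less. Its levels were 123, 129 and 116 CPM with HCW9218 alone and 152, 185 and 176 CPM with the combination. Again the groups did not overlap, with combination replicate 1 nearest to monotherapy. The log2 fold change was 0.48 ± 0.13 (SE), and the gene was not called over all genes.

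**Figure D1:**
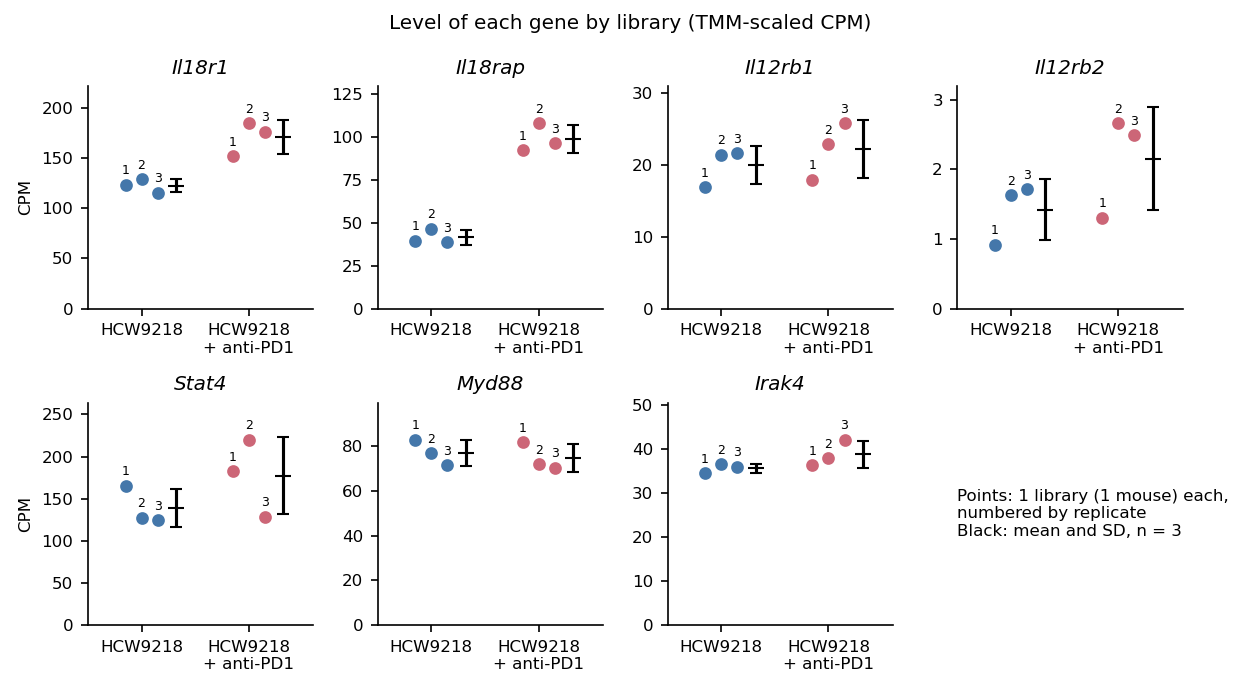
Level of each of the 7 genes in every library, in CPM scaled by TMM factors, with 1 panel per gene and the vertical axis from 0; points are libraries numbered by replicate, and black marks are the mean and SD of 3 mice. Il18rap and Il18r1 show no overlap between groups, with means of 41.5 and 99.0 CPM for Il18rap, while the points of the other 5 genes overlap.

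The proportion of both chains differed between the groups, which restates their unequal fold changes. Per kilobase of exon, Il18rap was at 0.228, 0.257 and 0.238 of the Il18r1 level in the monotherapy libraries and at 0.434, 0.417 and 0.390 in the combination libraries. The highest monotherapy ratio was below the lowest combination ratio, and the means were 0.241 ± 0.0149 and 0.414 ± 0.0224 (SD, n = 3 each). In each group Il18r1 had the higher level per length. That length covers all exons of the deposited gene model, and which of them these cells use was not measured.

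Both chains of the IL-12 receptor had overlapping groups. Il12rb1 was at 16.9, 21.4 and 21.6 CPM in monotherapy and 17.9, 22.9 and 25.8 CPM in the combination, a log2 fold change of 0.15 ± 0.17 (SE). Replicate 1 was the lowest library of either group. The level per kilobase of Il18r1 was 5.30 ± 0.835 times that of Il12rb1 in monotherapy and 6.64 ± 0.729 times in the combination (SD, n = 3 each).

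Il12rb2, the chain that docks STAT4 and that activated T cells are known to induce, was the member with the lowest level. It had 33, 64 and 71 counts in monotherapy and 43, 101 and 96 counts in the combination, or 0.919, 1.63 and 1.71 CPM against 1.31, 2.66 and 2.49 CPM. Combination replicate 1 lay inside the monotherapy range, and the other combination libraries lay above it. The log2 fold change was 0.60 ± 0.37 (SE). The 95% Poisson interval, which covers counting error only, ran from 0.946 to 1.76 CPM in combination replicate 1 and from 1.34 to 2.16 CPM in monotherapy replicate 3, so those libraries were not told apart at this depth.

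The Il12rb2 values carry a counting limit. Of its 3794 exonic bases, 1519 (40.0%) are shared with Serbp1 on the other strand, an RNA-binding protein gene with 23264 to 36505 counts per library, and the sources used here do not state the strand setting of the count. The sum of 3 CD4 T cell markers (Cd4, Foxp3 and Cd40lg; 0 of 3 were called) was 4.01, 6.48 and 7.82 CPM in monotherapy replicates 1, 2 and 3 and 1.58, 5.12 and 4.77 CPM in those of the combination. Within each group the libraries had the same order in this sum as in Il12rb2. Between groups the signs differed. Cd4, Foxp3 and Cd40lg had log2 fold changes of -1.03 ± 0.50, -0.48 ± 0.44 and -0.42 ± 0.46 (SE), against 0.60 for Il12rb2. The part of this sum in the Il12rb2 values was not tested.

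Stat4, the relay of the IL-12 receptor, and Myd88 and Irak4, those of the IL-18 receptor, also overlapped between groups. Stat4 was at 165, 127 and 124 CPM in monotherapy and 183, 220 and 129 CPM in the combination. Combination replicate 3 fell among the monotherapy libraries, and the log2 fold change was 0.35 ± 0.21 (SE). Its coefficient of variation between combination mice was 25.9%, against 1.25% from counting alone.

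Myd88 was at 83.0, 76.9 and 71.5 CPM and then at 81.9, 71.8 and 70.3 CPM, a log2 fold change of -0.05 ± 0.13 (SE). Irak4, the kinase that MyD88 recruits first, was at 34.5, 36.5 and 36.0 CPM and then at 36.3, 37.9 and 42.2 CPM, a log2 fold change of 0.12 ± 0.12 (SE). These were the flattest members, with 95% intervals of -0.30 to 0.20 for Myd88 and -0.12 to 0.36 for Irak4 on the log2 scale. Myd88 shares 290 of its exonic bases with Acaa1a and Irak4 shares 395 with Twf1, in both cases on opposite strands, and Stat4 shares 1033 with the same-strand gene model Gm28177, which had 24 to 84 counts per library.

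In edgeR's quasi-likelihood fit of 15142 genes, 1 of the 7 members (Il18rap) was called higher at an adjusted p under 0.05 and 0 were called lower, where 0.951% of all genes tested were called higher and 0.132% lower. Since that comparison was known when the members were chosen, nothing is read from the count. DESeq2 and limma-voom also called 1 member higher, against 1.27% and 0.819% of all genes. The combination libraries all lay above the monotherapy libraries for 2 of 7 members and all below for 0, against 7.17% and 7.54% of all genes. Among the 20 other cytokine receptor chains described below, they lay all above for 7 and all below for 5, so such separation was not particular to the members. The members' median log2 fold change was 0.35, and that of all genes was -0.00.

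**Figure D2:**
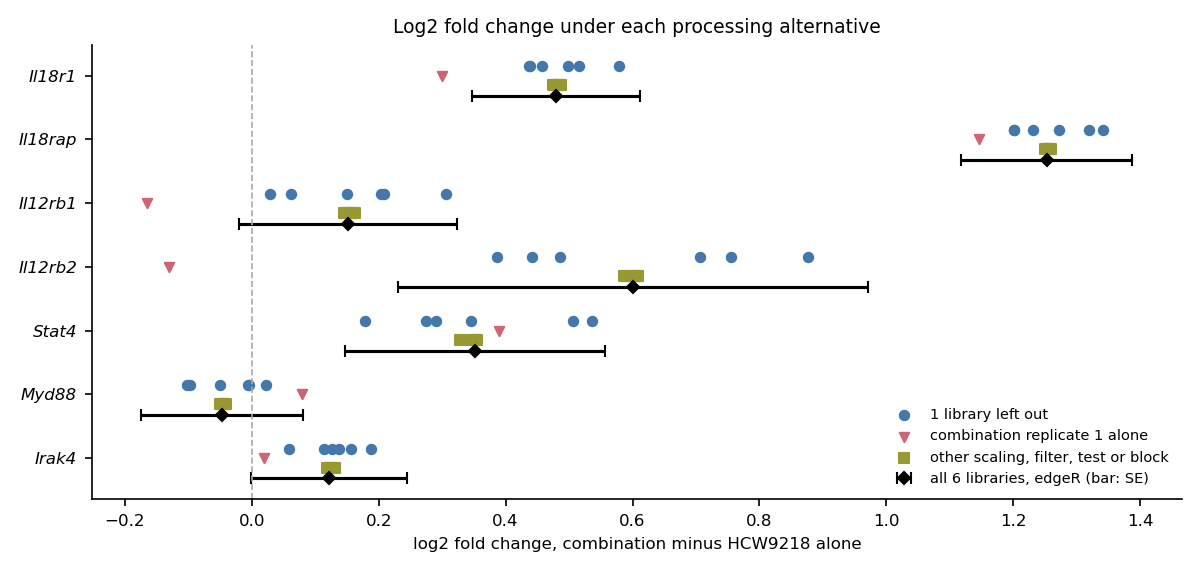
Log2 fold change of each member (horizontal axis, combination minus HCW9218 alone) with all 6 libraries and its SE (black), with 1 library left out (blue), with combination replicate 1 as the only combination library (red) and under other scalings, filters, tests and the replicate block (olive). Il18rap stays between 1.15 and 1.34, while Il12rb1, Il12rb2 and Myd88 have values on both sides of 0.

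Across 14 alternative fits the log2 fold change of Il18rap ranged from 1.15 to 1.34; these fits reuse the libraries behind the choice of the gene and are no independent support. With the combination group reduced to replicate 1, which had no Dct or Tyrp1 counts, Il18rap was at 1.15 and Il18r1 at 0.30, while Il12rb1 and Il12rb2 turned to -0.16 and -0.13. Stat4 was then at 0.39, Irak4 at 0.02, and Myd88 turned to 0.08. That fit assumes that the lone library varies like the others. Stat4 ranged from 0.18 without combination replicate 2 to 0.54 without combination replicate 3.

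Levels were compared between genes per kilobase of exon, over all exons of each gene model, so the order rests on those lengths. In monotherapy the order was Stat4 (35.9 ± 5.90), Myd88 (29.9 ± 2.24), Il18r1 (25.5 ± 1.39), Irak4 (7.10 ± 0.207), Il18rap (6.15 ± 0.645), Il12rb1 (4.87 ± 0.645) and Il12rb2 (0.374 ± 0.115 CPM per kilobase; SD, n = 3 each). Stat4 and Myd88 overlapped between libraries, as did Irak4 and Il18rap, and the other neighbours in that order did not. In the combination Il18rap, at 14.7 ± 1.22 CPM per kilobase, was above Irak4, at 7.73 ± 0.600, with no overlap, and Il18r1 and Myd88 now overlapped.

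Among all genes tested, the monotherapy level per length of Il18r1 was above that of 85.9% of genes, that of Il18rap above 56.7% and that of Il12rb2 above 15.5%. The other receptor genes of the chromosome 1 cluster were far lower than Il18r1. Il1rl1, whose end is closest to Il18r1, had 3, 16 and 12 counts in monotherapy and 14, 17 and 13 in the combination, where Il18r1 had 4429 to 7011 counts. Il1rl2, a chain of the IL-36 receptor, had a mean of 8.52 CPM, Il1r1 of 1.59 CPM and the decoy receptor gene Il1r2 of 0.272 CPM. Slc9a4, a sodium-proton exchanger gene on the far side of Il18rap, had 1 count in all 6 libraries together.

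**Figure D3:**
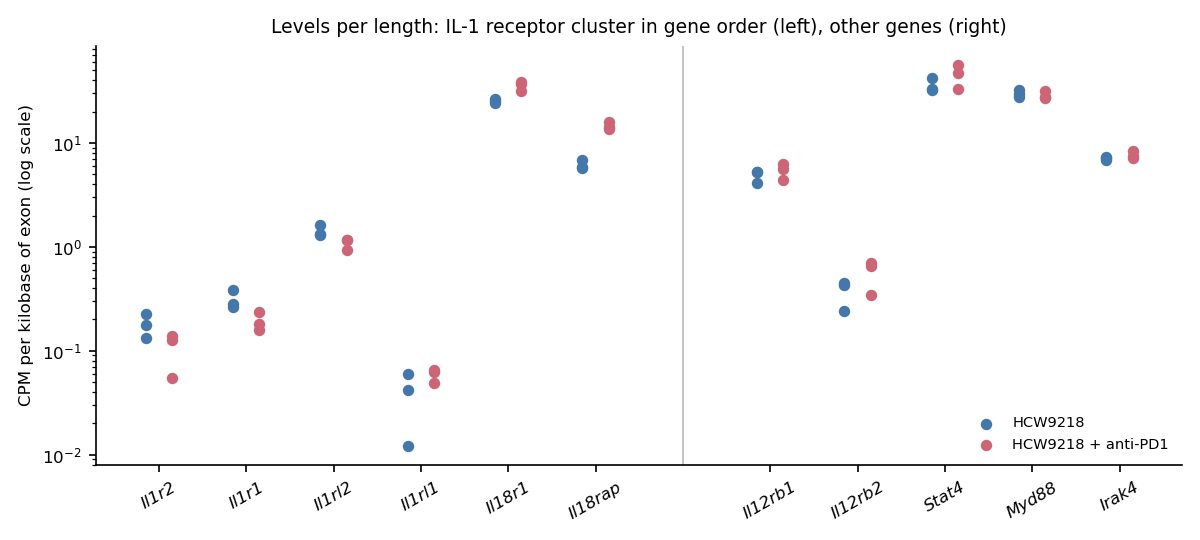
Level per length in every library, in CPM per kilobase of exon on a log axis, for genes of the chromosome 1 receptor cluster in their order on the chromosome (left of the grey line) and for the other members (right); Slc9a4 is not drawn because 5 of its 6 values are 0. Il18r1 and Il18rap stand above the other cluster genes, and Il12rb2 is the lowest member.

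The rest of the pathway was described with 6 lists, in all 87 genes of which 80 passed the count filter. Of these, 4 were called higher (among them Tbx21, Gzmb and Il10ra) and 0 lower, against 0.951% and 0.132% of all genes. The lists, like the members, were chosen with earlier results of these data known, so nothing is read from their calls. At the ligand end, RNA of the cytokines themselves was scarce in these CD8+ cells. Il18 had 4 to 7 counts per library, and Il12b, which encodes the p40 chain shared by IL-12 and IL-23, had 3 to 15. Of 8 genes of ligands and their processing 3 were tested and 0 called, with a median log2 fold change of -0.10. At an unadjusted edgeR p under 0.05 there was 1, Il18bp, and DESeq2 and limma-voom called 0. Over all genes, 1211 of 15142 had an unadjusted edgeR p under 0.05, both directions together, which is the background for such counts in each list. Il18bp, a secreted decoy for IL-18, had 274, 350 and 428 counts in monotherapy and 165, 221 and 259 in the combination, a log2 fold change of -0.61 ± 0.19 (SE; edgeR adjusted p = 0.306). Casp1, the protease that matures pro-IL-18, was at -0.10 ± 0.22, and Ebi3, a chain of IL-27, at 0.07 ± 0.75.

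Of 7 other IL-1 receptor family genes 5 were tested and 0 called, with 4 of them below 0 and a median of -0.12. At an unadjusted edgeR p under 0.05 there were also 0, and DESeq2 and limma-voom called 0. Sigirr, a dampening receptor of this family, averaged 80.7 CPM, with a log2 fold change of -0.12 ± 0.15 (SE). Il1rap, the accessory chain of the IL-1, IL-33 and IL-36 receptors, had -0.01 ± 0.20. Il1rl2 and Il1r1 had -0.39 ± 0.17 and -0.69 ± 0.31 (edgeR adjusted p = 0.624 and 0.626). Both had all combination libraries below all monotherapy libraries, as did 7.54% of all genes tested.

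Downstream of the IL-18 receptor, 22 of 22 signalling genes were tested and 0 were called, with 16 below 0, 6 above 0 and a median of -0.09. At an unadjusted edgeR p under 0.05 there were 0 above and 2 below, DESeq2 called 1 lower (Gadd45b), and limma-voom called 0. The kinase Ikbkb and the NF-κB subunit Nfkb1 had log2 fold changes of -0.02 ± 0.16 and -0.05 ± 0.15 (SE). The NF-κB inhibitor Nfkbia and the TAK1-binding adaptor Tab2 had -0.22 ± 0.18 and -0.17 ± 0.12. Gadd45b, a stress-inducible activator of p38 signalling picked out after its values were seen, had 1432, 1952 and 1659 counts in monotherapy and 1022, 781 and 752 in the combination (log2 fold change -0.87 ± 0.19, SE; edgeR adjusted p = 0.0951).

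Of 8 IL-12 signalling genes all were tested and 0 called, with a median of -0.13. At an unadjusted edgeR p under 0.05 there were 0 above and 3 below, DESeq2 called 2 lower, Socs3 among them, and limma-voom called 0. Socs3, a feedback inhibitor of JAK-STAT signals, had a log2 fold change of -0.63 ± 0.17 (SE), and its groups did not overlap (edgeR adjusted p = 0.186). Jak2 and Stat3 had -0.13 ± 0.12 and -0.14 ± 0.15.

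Among 22 genes listed as induced by IL-12 or IL-18, 3 rose, 0 fell and 19 were not called, with a median of 0.08. Whether either cytokine induces each of these genes in CD8+ T cells was not tested here. At an unadjusted edgeR p under 0.05 there were 8 above and 2 below. DESeq2 called 4 higher and 1, Irf1, lower, and limma-voom called 3 higher and 0 lower. Among those that rose were Tbx21, the gene of the T-bet transcription factor, with a log2 fold change of 1.55 ± 0.20 (SE; edgeR adjusted p = 0.00691), and the granzyme B gene Gzmb, with 1.62 ± 0.19 (edgeR adjusted p = 0.00505). Ets1, Runx3 and Eomes, all transcription factors, had 0.04 ± 0.17, 0.26 ± 0.19 and 0.52 ± 0.14 and were not called. Irf1, an interferon-induced transcription factor, had -0.67 ± 0.15 (edgeR adjusted p = 0.0884). Ifng, the best known product of joint IL-12 and IL-18 signals and named after its values were seen, had 351, 457 and 357 counts in monotherapy and 403, 395 and 283 in the combination, a log2 fold change of -0.00 ± 0.21 (SE).

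For comparison with other cytokine receptors, 20 chains were tested, of which 1 rose, 0 fell and 19 were not called, with 10 above 0, 10 below 0 and a median of 0.01. At an unadjusted edgeR p under 0.05 there were 4 above and 2 below, and DESeq2 and limma-voom called 3 and 2 higher and 0 lower. Il10ra, the ligand-binding chain of the IL-10 receptor, rose by 0.97 ± 0.14 (SE) on the log2 scale (edgeR adjusted p = 0.0108), a call that was lost whichever monotherapy replicate was left out. Il2rb, a signalling chain common to the receptors of IL-2 and IL-15, had 0.76 ± 0.15 and was not called in edgeR (adjusted p = 0.0515), while DESeq2 and limma-voom called it higher. Il7r and Il2rg had 0.37 ± 0.16 and -0.04 ± 0.16, and Il6st, the signalling chain of the IL-6 family, had -0.49 ± 0.18.

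With combination replicate 1 as the only combination library, Tbx21, Gzmb and Il10ra were at 1.44, 1.76 and 1.14 on the log2 scale. The list medians, in the order given above, were then -0.01, -0.15, -0.15, -0.34, 0.19 and -0.07.

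**Figure D4:**
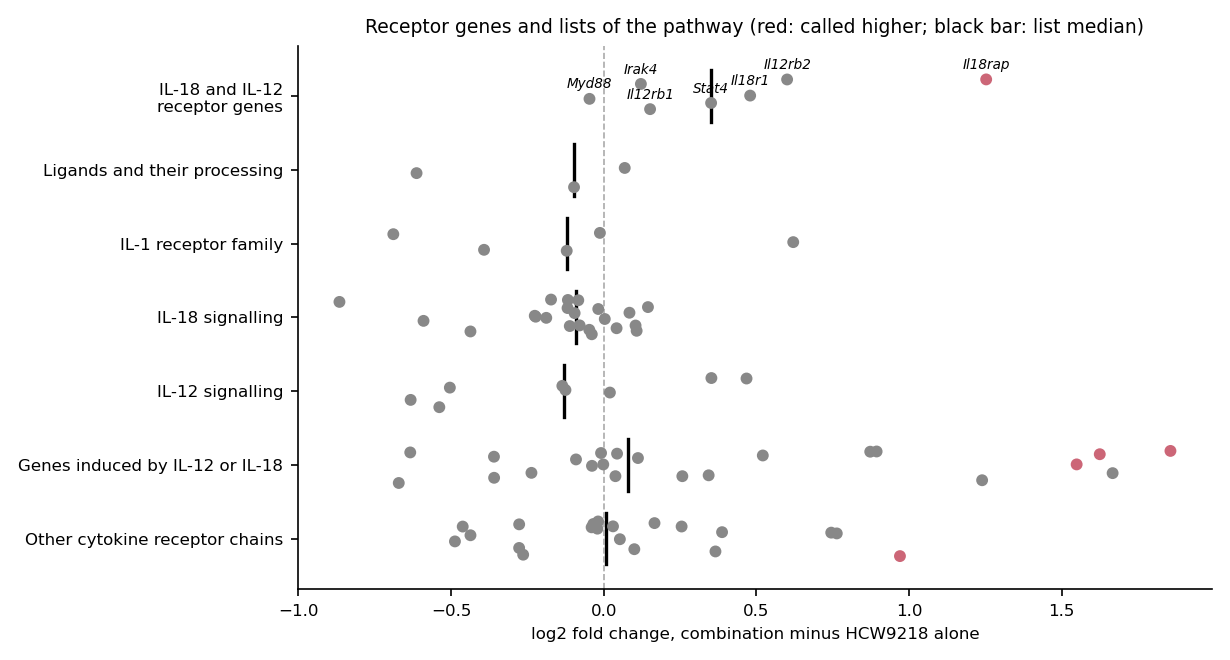
Log2 fold change (horizontal axis, combination minus HCW9218 alone) of the 7 receptor and relay genes and of the tested genes of 6 pathway lists, 1 point per gene; red points were called higher in edgeR, black bars are list medians and the dashed line is the median of all genes. Il18rap is the red point among the 7 genes, and 4 further red points lie in the lists, Tbx21, Gzmb and Il10ra among them.

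Il18rap had close matches in its pattern over the 6 libraries. Likeness was the root-mean-square difference of log2 CPM, each gene centred on its own mean, among 8970 genes with a mean of at least 5 CPM. Among the 5 nearest were the condensin gene Ncapg (0.0799), the cytokinesis gene Cep55 (0.136), the topoisomerase gene Top2a (0.142) and the replication factor gene Mcm10 (0.147). Ncapg was at 6.46, 7.29 and 6.30 CPM in monotherapy and 16.8, 19.8 and 16.3 CPM in the combination, so it had the same high and low libraries as Il18rap in all but the lowest combination one. In all 20 genes lay within 0.2 of Il18rap. The 5 nearest were all called higher too, with log2 fold changes of 1.22 to 1.40, so this likeness in large part follows the group difference. The nearest to Il12rb2 were H2-Q10 (0.159), Itpripl2 (0.202), Disc1 (0.209), Mbnl3 (0.228) and Atp2b4 (0.247), and 1 gene lay within 0.2. Il12rb2 itself averaged 1.79 CPM, under the 5 CPM asked of the compared genes. Counting error therefore adds to its distances, and the numbers of near genes are not comparable between Il18rap and Il12rb2.

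IL-18 receptors are also known from NK cells and innate-like T cells, so markers of both were measured beside Il18rap. Of 5 NK cell markers 1 (Klre1) was called higher and 0 lower, against 0.951% and 0.132% of all genes tested. Their summed level was 278 to 356 CPM in monotherapy and 320 to 498 CPM in the combination, nearly all of it from Nkg7, which CD8+ T cells also express. Klri2, an NK receptor gene, had 23, 21 and 12 counts in monotherapy and 41, 56 and 29 in the combination, with no overlap in CPM and a log2 fold change of 1.25 ± 0.44 (SE; edgeR adjusted p = 0.408). Klrb1c, which encodes NK1.1, had 0.54 ± 0.30. Ncr1, the defining NK receptor gene, had 2 to 13 counts in monotherapy and 5 to 11 in the combination, with a log2 fold change of -0.16 ± 0.71 (SE). Klre1 had 162, 184 and 137 counts and then 500, 580 and 337. Like Klri2, it had every combination library above every monotherapy library in CPM, which held for 7.17% of all genes tested.

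Of 3 matched innate-like T cell markers 1 was called higher and 0 lower, against 0.951% and 0.132% of all genes tested. The called one was Cd163l1, at 463, 760 and 758 counts and then 1490, 1395 and 2249. The 3 markers summed to 25.5 to 35.1 CPM in monotherapy and 48.3 to 70.4 CPM in the combination. The higher sum came from Cd163l1. Zbtb16, which encodes the innate-like regulator PLZF, had 46 to 72 and 34 to 69 counts, a log2 fold change of -0.05 ± 0.33 (SE). Trdc, the δ chain constant gene, had 404 to 626 and 310 to 399 counts. For Trdc every combination library was below every monotherapy library in CPM, as for 7.54% of all genes tested. Its log2 fold change was -0.35 ± 0.16 (SE), and it was not called. No marker of either list was at 0 in every library, and the part of these cells in the Il18rap result was not tested.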

How the data were processed

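Bulk mRNA of 6 libraries was compared between 2 groups of 3 mice, taken from the sample labels. The labels name no batch. The authors deposited raw, unnormalized read counts for each gene. The tools listed in the submitters' processing notes are DESeq2, featureCounts, STAR 2.5.2b and Subread 1.5.2. The sources used here state no strand setting, build or annotation release, so a read shared by genes of opposite strand cannot be assigned. Each library's own file equalled its column of the series table in 6 of 6 cases, and 6 columns matching no sample were not used. Of the deposited genes, 49056 were in GENCODE M21 (GRCm38), 91.4% of these at identical positions. The deposited normalized and regularized-log tables were not used.

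In R 4.3.3 and edgeR 4.0.16, genes were kept with filterByExpr (15142) and scaled by TMM factors of 0.901 to 1.12, and the quasi-likelihood F-test compared combination with monotherapy, without covariates, with Benjamini-Hochberg adjustment and calls under 0.05. CPM uses the TMM factors. SE is the coefficient over the square root of F, and 95% intervals are normal approximations from it. DESeq2 1.42.0, limma-voom (limma 3.58.1), other scalings, filters, a replicate block and leaving out libraries were alternatives. The test was checked on simulated counts. Chi-square per gene between libraries of a group ran from 9.79 to 295, so none differed by counting noise alone.

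The members and gene lists were chosen with earlier results of these data known. Named genes are the members, their chromosomal neighbours, called list genes, at most 4 further genes per list by highest mean CPM, and the 5 nearest in pattern (log2 CPM, prior count 2). Some genes that this rule names are not reported here. Marker sums for B, myeloid, dendritic and pigment cells were 33.6 to 47.2, 8.31 to 19.8, 6.63 to 10.5 and 20.9 to 27.1 CPM in monotherapy, and 23.5 to 51.6, 10.9 to 13.9, 10.2 to 13.1 and 29.0 to 51.9 CPM in the combination. Of these markers 0 were called; of the 5 pigment markers only Pmel passed the count filter, so Dct, Tyrp1, Mlana and Tyr could not be called.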

Additional observations from a re-analysis of the deposited data

How the results depend on the processing

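Il18rap was the 1 member called higher, and 0 were called lower, in each of 13 alternative fits that gave counts of calls. Over all genes the calls were 144 higher and 20 lower; DESeq2 called 258 and 59, the fit with no count filter 340 and 113, and the fit with the replicate block 231 and 57. Leaving out 1 library gave 32 to 233 higher and 2 to 49 lower genes. Higher genes numbered 32, 49 and 33 without monotherapy replicate 1, 2 or 3, and 180, 69 and 233 without combination replicate 1, 2 or 3; lower genes numbered 4, 5 and 2, and 28, 4 and 49. Of the pathway list genes, 4 were higher and 0 lower; DESeq2 called 7 and 4, and the fit with no count filter 8 and 3. Leaving out 1 library gave 3 to 7 higher (7 without combination replicate 3) and 0 to 2 lower (2 without combination replicate 1), and the replicate block gave 1 lower. The cause was not tested. Tbx21 and Gzmb were called in all 13. Same-numbered libraries correlated at 0.145, -0.0551 and 0.279 in their deviations from the group means, and differently numbered ones at -0.229 to 0.119. The highest values, 0.279 and 0.145, were of same-numbered libraries, and these values do not settle whether the numbers mark pairs. The labels name no pairs, so the main fit took none. No scaling moved the median log2 fold change of all genes by 0.1. At 33 to 101 counts, Il12rb2 had a counting variation of 13.4% and 11.2% in monotherapy and the combination, and 30.7% and 34.3% between mice. With 3 mice per group, changes smaller than the spread between mice were not resolved.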
